A study of Mus musculus with 69 samples.

Results

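The mouse genes P2rx7, Art2b, Cd38, Entpd1, Nt5e and Adora2a were followed across T cells that carried a full or a reduced set of Stat5 alleles. They were taken by name from count tables that share 24309 gene symbols, so 6 of 24309 symbols are described here. Bulk poly(A) RNA-seq libraries had been made from T cells sorted out of pooled lymph nodes and spleens of mice 8 to 16 weeks of age. WT mice were Stat5a+/+ Stat5b+/+, AAB mice were Stat5a-/- Stat5b+/- and kept 1 Stat5b allele, and BBA mice were Stat5a+/- Stat5b-/- and kept 1 Stat5a allele, every mutation being germline and therefore present in all cells of the animal. From each genotype, CD8+ naive cells (Tnv, CD44 low CD62L high) and central memory cells (Tcm, CD44 high CD62L high) were profiled with no cytokine (NC), IL-7 or IL-15, and effector memory cells (Tem, CD44 high CD62L low) with NC or IL-15, in 2 libraries per group. CD4+ naive cells of the same genotypes were profiled with NC or IL-7 in 2 or 3 libraries per group. A further 4 libraries, labelled as CD8+ T cells of AAB mice, came from cells activated in vitro for 24 h, transduced with a retrovirus that carried GFP with constitutively active STAT5A (S5a) or with a control virus (Ctl), held in IL-2 for 48 h and sorted for GFP, in 2 libraries each. By the study's methods, libraries of a group came from separate mice, and NC cells were processed directly after sorting while cells given cytokine were cultured, whereas the labels describe all as cultured. Where NC cells were not cultured, the effect of a cytokine and that of culture cannot be told apart, so each comparison of a cytokine with NC below is a difference between those libraries.

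The 6 genes encode parts of a surface system that reads nucleotides outside the cell. P2X7, the product of P2rx7, is a cation channel that opens with extracellular ATP, and strong or prolonged opening can lead to shedding of surface proteins and to death of T cells. ART2.2, the product of Art2b, uses extracellular NAD to attach ADP-ribose to P2X7 and other surface proteins, which gates the channel without ATP, while CD38 consumes the same NAD. CD39, encoded by Entpd1, removes phosphates from ATP and ADP, CD73, encoded by Nt5e, turns the resulting AMP into adenosine, and the receptor encoded by Adora2a senses adenosine and raises cyclic AMP. STAT5A and STAT5B are transcription factors that are activated by the receptors for IL-2, IL-7 and IL-15.

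The P2rx7 gene lies on chromosome 5 at positions 122643911-122691432, Cd38 on chromosome 5 at 43868553-43912375, Nt5e on chromosome 9 at 88327197-88372092, Adora2a on chromosome 10 at 75316877-75334784, Entpd1 on chromosome 19 at 40612366-40741602, all on the plus strand, and Art2b on chromosome 7 at 101576970-101585600 on the minus strand (GRCm38, GENCODE vM21). The bases just before the start sites of P2rx7 and Entpd1 are shown because these were the members that differed between S5a and Ctl libraries, in opposite directions. They come from RefSeq on GRCm38.p6 and lie before the first annotated exon, at chr5:122643677-122643910 and chr19:40612116-40612365, both on the plus strand.
P2rx7: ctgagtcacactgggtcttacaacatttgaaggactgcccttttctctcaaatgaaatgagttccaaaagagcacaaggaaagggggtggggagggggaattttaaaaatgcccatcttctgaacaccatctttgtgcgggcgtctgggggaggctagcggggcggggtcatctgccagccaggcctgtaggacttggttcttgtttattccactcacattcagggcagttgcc
Entpd1: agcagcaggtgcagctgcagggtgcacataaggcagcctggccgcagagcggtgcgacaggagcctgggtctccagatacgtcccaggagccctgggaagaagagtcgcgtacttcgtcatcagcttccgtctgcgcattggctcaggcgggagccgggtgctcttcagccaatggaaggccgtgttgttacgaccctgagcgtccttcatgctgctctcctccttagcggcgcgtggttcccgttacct
The Entpd1 stretch has a GC content of 62.4% and the P2rx7 stretch 51.7%. The letters TTCNNNGAA, the core of the STAT binding motif, which reads the same on both strands, were found in 0 of 7 promoter windows of 5 members (250 bases before to 50 after a start site), and in 2726 of 32851 such windows over all genes (8.30%). Adora2a had no window in the table used.

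Art2b has a close relative, Art2a-ps, beside it on chromosome 7 at 101552453-101560865. Their coding sequences are shown over coding bases 189 to 248, counted from the start codon, because 50-base reads must tell them apart, and the 5 bases that differ are in capitals.
Art2b: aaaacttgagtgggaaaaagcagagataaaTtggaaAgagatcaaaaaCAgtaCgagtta
Art2a-ps: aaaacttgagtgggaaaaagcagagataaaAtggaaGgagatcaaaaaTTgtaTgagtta
The longest run of bases that both coding sequences share is 125 of 870, and 5.03% of the 50-base words in Art2b transcripts also occur in Art2a-ps. Art2b values are therefore uncertain to that extent. The share of words found in any other gene was 1.17% for P2rx7, 1.20% for Cd38, 0.128% for Nt5e and 0 for Entpd1 and Adora2a. P2rx7, Entpd1 and Cd38 overlap other annotated genes, among them an antisense gene at Cd38, and whether the counting used strand is not given in the sources used here.

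Total counts were 5926139 to 25612758 per CD8 library, 6705004 to 34118295 per CD4 library and 11020965 to 16516525 per retrovirus library. The targeted genes differed between genotypes in the sorted CD8 libraries without separating every allele number. Stat5a was at 0.974 to 4.95 CPM (counts relative to the scaled library size) in AAB, 34.4 to 50.5 in BBA and 33.5 to 112 in WT, and Stat5b was at 77.1 to 138 CPM in AAB, 48.3 to 89.8 in BBA and 169 to 354 in WT. The AAB range of Stat5a and the WT range of Stat5b lay apart from those of the other genotypes, whereas Stat5a overlapped between BBA and WT and Stat5b between AAB and BBA. The counts cover the whole gene, and where the deleted parts lie was not used here. Cd8a was at 700 to 1982 CPM in the sorted CD8 libraries and Cd4 at 605 to 1189 CPM in the CD4 libraries. A pair of WT libraries stood apart. In WT Tnv with IL-15, replicate 2 held 237 CPM of Cd4 and 182 CPM of Foxp3, against 6.67 and 19.4 CPM in replicate 1. In WT Tcm with IL-7, replicate 1 held 636 CPM of Eomes against 289 in replicate 2 and 10.1 CPM of Cd4 against 0.476, with Ncr1 at 0.144 CPM. For some results that rest on these libraries, values without them are also given. By Xist and Y-linked counts all 6 CD8 Tnv libraries with IL-7 and 4 of 6 Tcm libraries with IL-7 were male, whereas the other 38 sorted CD8 libraries were female, so the effect of IL-7 and of sex cannot be told apart in CD8 Tnv or in WT Tcm. In Tcm with IL-7 both WT libraries were male, while replicate 1 of AAB and of BBA was female. Genotype and sex are therefore partly mixed in that condition. In bulk RNA, fewer cells that express a gene and less RNA per cell cannot be told apart either.

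A call required a change of over 1.5-fold together with an adjusted p under 0.05, from edgeR's quasi-likelihood test and the Benjamini-Hochberg procedure over all genes of a fit. Every adjusted p below comes from that test. AAB and BBA were compared with the same WT libraries, so both comparisons share their controls. Overlap of libraries was counted for the members only. The share of all genes without overlap is not known here, so counts of conditions without overlap are a description. Over the 8 CD8 conditions the members gave 42 tests of AAB against WT with 1 call, and 17 of these tests had an unadjusted p under 0.05. Of all genes, 3.82% to 25.1% had such a p in these conditions. The share of all genes called there was 0.164%, 0.256% and 0.938% in Tnv with NC, IL-7 and IL-15, 0.0395%, 0.0594% and 4.45% in Tcm, and 0.0197% and 0.0196% in Tem with NC and IL-15. BBA against WT gave 8 calls in 42 tests, and 21 of the tests had an unadjusted p under 0.05, as had 9.67% to 49.2% of all genes. Here the shares of all genes called in Tnv, in the same order, were 2.75%, 2.69% and 9.56%, those in Tcm 0.277%, 3.09% and 23.6%, and those in Tem 0.206% and 1.69%.

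AAB and BBA were also compared with each other. Of all genes, 4.78% to 29.3% had an unadjusted p under 0.05 in the CD8 conditions of this comparison. In CD4 Tnv with NC and IL-7 the shares were 4.37% and 13.7%. For AAB against WT in CD4 they were 7.98% and 11.3%. AAB against BBA gave 0 calls in 42 CD8 tests by edgeR, with 6 at an unadjusted p under 0.05 and 2 calls by DESeq2, where Tnv had 0.523%, 0.148% and 0.0706% of all genes called, Tcm 0.0395%, 0.0891% and 5.87%, and Tem 0.0197% and 0.00982%. In CD4 Tnv with NC and IL-7, AAB against WT (0.355% and 0.611% of all genes called) gave 0 calls in 8 tests by edgeR, with 2 at an unadjusted p under 0.05 and 1 call by DESeq2, BBA against WT (1.13% and 5.5%) gave 1 call in 8, and AAB against BBA (0.0788% and 1.56%) gave 0 in 8, with 1 at an unadjusted p under 0.05 and 0 calls by DESeq2.

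P2rx7, the ATP-gated channel, was called higher in both STAT5-deficient genotypes in Tcm with IL-15, and in BBA also in Tem with IL-15 and CD4 Tnv with IL-7. In Tcm with IL-15 the WT libraries held 0.856 and 1.75 CPM, AAB libraries 8.63 and 10.4 CPM, and BBA libraries 14.01 and 9.37 CPM. Every deficient library was thus above both WT libraries, and AAB and BBA overlapped. The log2 fold change was 2.88 ± 0.37 (SE, adjusted p = 0.00788) for AAB and 3.25 ± 0.37 (adjusted p = 0.000898) for BBA over WT, in a condition in which 1.67% of genes were called higher in AAB and 11.3% in BBA. Both calls held without each library in turn. The WT libraries, with a mean of 21.5 counts, lay below the filter of this fit (99.7 normalised counts in any library). P2rx7 was therefore tested through the deficient libraries. Each call also held in 7 of 8 other settings, among them no filter on low counts. Summed B cell markers (6 genes) were at 202 and 402 CPM in these BBA libraries against 95.3 and 184 CPM in WT, and summed myeloid markers (7 genes) at 82.5 and 65.6 against 19.8 and 22.0 CPM. The AAB libraries held 72.5 and 205 CPM of the B cell and 19.3 and 47.6 CPM of the myeloid markers. The part of these markers in the P2rx7 differences was not tested.

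**Figure D1:**
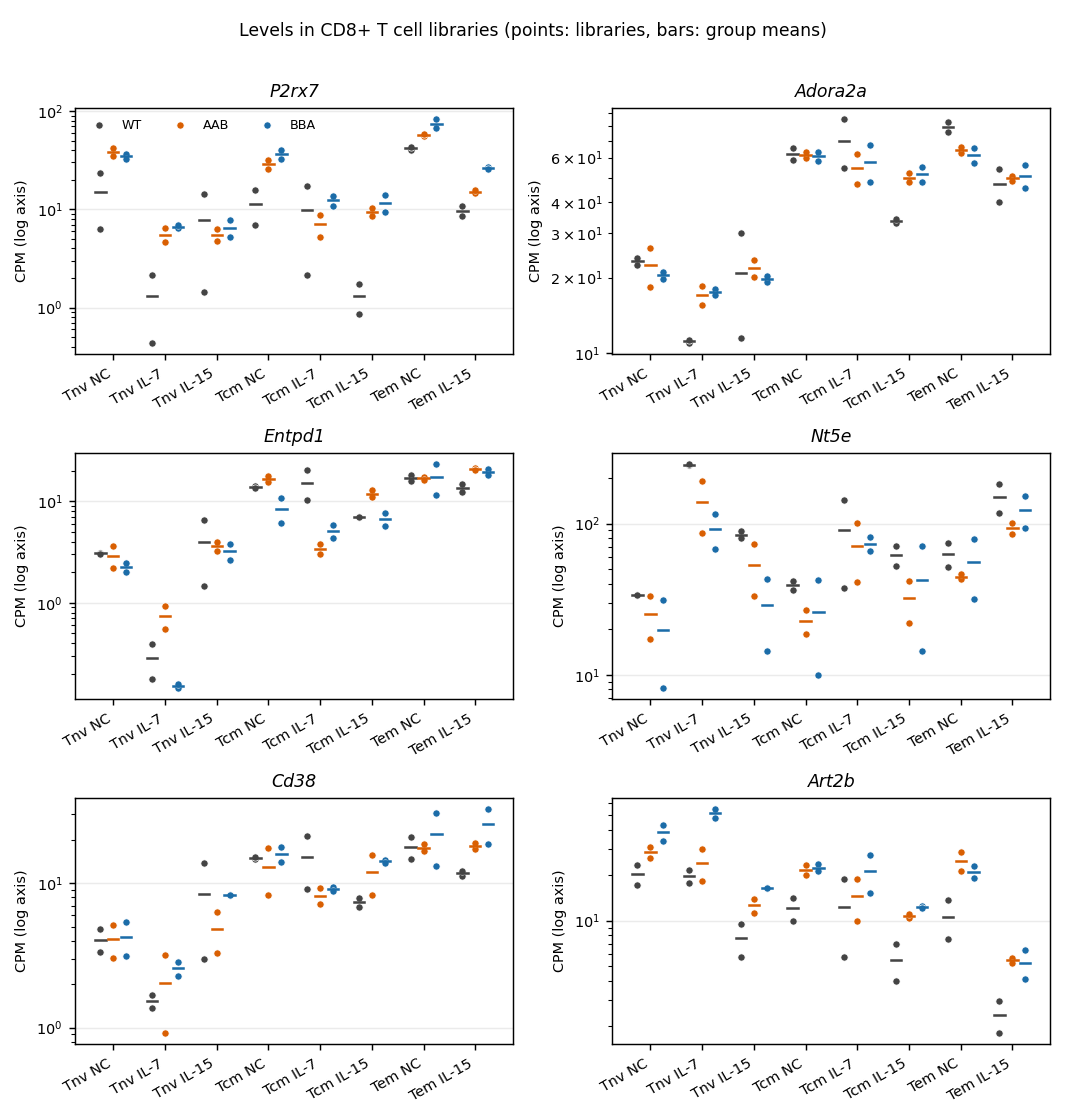
CPM (log axis) of each member in 48 sorted CD8+ libraries, by cell state and cytokine. Points are libraries and bars are group means, with WT in grey, AAB in orange and BBA in blue. For P2rx7 in Tcm with IL-15 the WT points at 0.856 and 1.75 lie below all 4 deficient points, at 8.63 to 14.01.

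In Tem, too, P2rx7 was highest in BBA and lowest in WT, with and without IL-15. With IL-15, WT Tem held 8.55 and 10.8 CPM of P2rx7, AAB 14.7 and 15.7 CPM, and BBA 27.0 and 26.0 CPM. BBA exceeded WT by 1.5 ± 0.23 on the log2 scale (adjusted p = 0.0465, 0.56% of genes called higher), a call lost without any 1 of the 6 libraries (1.29 to 1.76, adjusted p = 0.0902 to 0.288). Without cytokine WT Tem held 40.4 and 43.1 CPM, AAB 55.4 and 58.9 and BBA 82.6 and 66.6 CPM. These groups did not overlap, and the difference of BBA from WT was 0.91 ± 0.13 (adjusted p = 0.0745) and that of AAB 0.52 ± 0.13 (adjusted p = 0.308). Summed myeloid markers were at 186 and 50.3 CPM in the BBA Tem libraries with IL-15 and at 15.7 and 41.6 CPM in WT, and summed regulatory T cell markers (7 genes) at 205 and 184 against 116 and 121 CPM. Their part in the P2rx7 difference was not tested.

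In Tnv without cytokine P2rx7 was at 6.36 and 23.7 CPM in WT, 42.05 and 35.1 in AAB, and 36.9 and 32.8 in BBA. All 4 deficient libraries lay above the higher WT library, by 2.57-fold and 2.32-fold over the WT mean, and neither difference was called (adjusted p = 0.479 and 0.182). The WT libraries differed from each other by more than the deficient ones did. Without WT replicate 2, which left the lower WT library alone, the log2 differences were 2.64 for AAB and 2.50 for BBA. In Tcm without cytokine the WT libraries held 6.99 and 15.8 CPM, AAB held 25.7 and 31.8, and BBA 40.5 and 32.8 CPM, again with no overlap and no call (adjusted p = 0.74 and 0.182). With IL-7, WT Tnv held 0.441 and 2.16 CPM, AAB 6.40 and 4.61 CPM and BBA 6.42 and 6.95 CPM, differences of 2.12 ± 0.65 (adjusted p = 0.362) and 2.39 ± 0.65 (adjusted p = 0.119).

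WT and deficient libraries overlapped in 2 of the 8 CD8 conditions, which were those with the WT libraries that stood apart. In Tnv with IL-15, WT replicate 2 held 14.2 CPM of P2rx7 and replicate 1 held 1.45 CPM, while AAB was at 6.35 and 4.74 CPM and BBA at 7.74 and 5.29 CPM. In Tcm with IL-7, WT replicate 1 held 17.4 CPM and replicate 2 held 2.17 CPM, while AAB was at 5.23 and 8.83 CPM and BBA at 10.9 and 13.7 CPM. In each, the other WT library lay below all 4 deficient libraries. Without WT replicate 1, BBA Tcm with IL-7 exceeded the remaining WT library by 2.62 on the log2 scale (adjusted p = 0.0321, 1.66% of genes called higher with both WT libraries in), the lone WT library being assumed to vary like the other groups. In the other 6 CD8 conditions every AAB and every BBA library lay above both WT libraries.

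In CD4 Tnv, too, every deficient library lay above every WT library of its condition. Without cytokine P2rx7 was at 13.6, 24.1 and 44.4 CPM in WT, 103 and 80.6 CPM in AAB, and 51.6 and 76.6 CPM in BBA, with no overlap between WT and either genotype. The differences, 1.73 ± 0.39 and 1.22 ± 0.39, were not called (adjusted p = 0.173 and 0.286). They were called without WT replicate 3, the highest of its group, at 2.28 for AAB (adjusted p = 0.0263) and 1.77 for BBA (adjusted p = 0.0392). Leaving out the highest WT library widens the difference, and the fit with all 7 libraries made no call. With IL-7 the WT libraries fell to 0.594, 1.52 and 4.33 CPM, AAB held 6.40 and 9.75 CPM, and BBA held 20.5, 10.7 and 15.8 CPM. BBA was higher than WT by 2.87 ± 0.51 (adjusted p = 0.00822, 2.88% of genes called higher), which held without each of the 8 libraries and with replicate number as a block, and AAB by 1.90 ± 0.56 (adjusted p = 0.211). Here too the WT libraries lay below the filter (99.7 normalised counts), so P2rx7 was tested through the deficient libraries. Summed NK cell markers (4 genes) were at 22.2 to 28.3 CPM in BBA against 0.445 to 1.5 CPM in WT in this condition. Over the CD4 libraries Ncr1, Klrb1c and Klra8 reached at most 4.14, 3.53 and 0 CPM, and Eomes 57.8 CPM. The sum in BBA was thus mostly Eomes, which is also a marker of memory or effector cells, and its part was not tested.

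**Figure D2:**
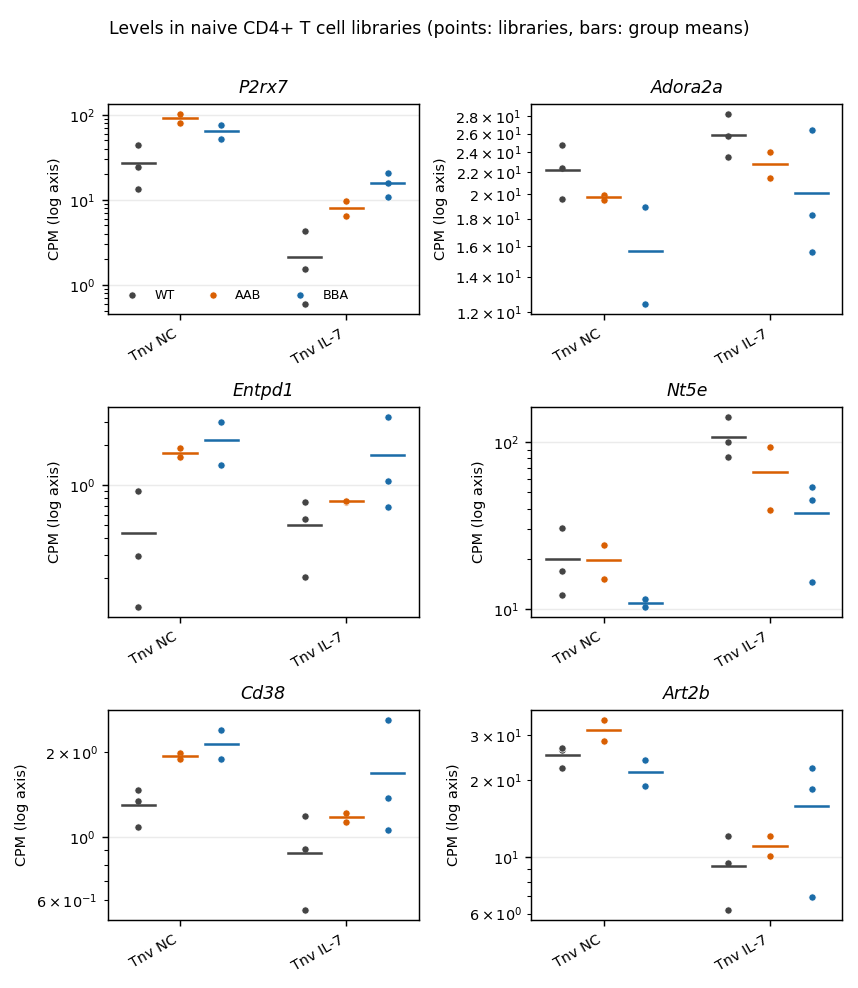
CPM (log axis) of each member in the 15 CD4+ naive libraries of the labelled groups, with NC or IL-7. Points are libraries and bars are group means, coloured by genotype as in the CD8 plot, and P2rx7 lies higher in every AAB and BBA library than in any WT library of the same condition.

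P2rx7 was called lower with cytokine than with NC in WT Tem with IL-15 and in WT CD4 Tnv with IL-7. In WT Tem it went from 40.4 and 43.1 CPM with NC to 8.55 and 10.8 CPM with IL-15, a log2 change of -2.05 ± 0.19 (adjusted p = 0.0201, 0.983% of genes called lower) that was not called without either NC library (adjusted p = 0.134 and 0.108). In WT CD4 Tnv it changed by -3.68 ± 0.57 with IL-7 (adjusted p = 0.00132, 7.44% called lower), a call that held without each library. In WT CD8 Tnv the change with IL-7 was -3.58 ± 1.25 (adjusted p = 0.0636). Over all genotypes and CD8 states the mean was lower with IL-15 than with NC in 9 of 9 comparisons, by 1.92-fold to 8.74-fold and without overlap in 8, and lower with IL-7 in 6 of 6, by 1.16-fold to 11.6-fold and without overlap in 5. The exceptions were the WT groups with the libraries that stood apart. These counts are a description, since only WT responses were tested. In WT Tcm with IL-15, P2rx7 was at 0.856 and 1.75 CPM against 6.99 and 15.8 CPM with NC, a change of -3.13 ± 0.99 (adjusted p = 0.305). Over all genes that comparison gave 0% called by edgeR, with 1311 of 10768 at an unadjusted p under 0.05 and 337 called by DESeq2, and IL-7 in the same cells gave 0.381% called. When WT Tcm replicate 1 with IL-7 was left out of that fit, the change was -3.14 (adjusted p = 0.0142).

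Art2b, which encodes the NAD-dependent ADP-ribosyltransferase, was called higher in BBA than in WT in 4 of the 7 CD8 conditions in which it was tested. In Tnv without cytokine WT held 17.3 and 23.4 CPM, AAB 30.7 and 26.1 CPM and BBA 43.0 and 33.7 CPM. In Tnv with IL-7 the values were 17.7 and 21.8 CPM in WT, 18.4 and 29.99 CPM in AAB and 47.9 and 54.6 CPM in BBA. In both, each BBA library lay above each WT and each AAB library. BBA exceeded WT by 0.93 ± 0.18 with NC (adjusted p = 0.035, 1.27% of genes called higher) and by 1.4 ± 0.25 with IL-7 (adjusted p = 0.0417, 1.15% called higher). Both calls rested on single libraries. With NC it was lost without WT replicate 1 (adjusted p = 0.165), AAB replicate 1 (0.0504), BBA replicate 1 (0.0935) or BBA replicate 2 (0.0641), over a log2 range of 0.72 to 1.20, and with IL-7 without any WT or BBA library (1.25 to 1.55 over all 6 left out, adjusted p = 0.136 to 0.362 where lost).

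With IL-15, at lower levels of Art2b, BBA was called higher than WT in Tnv and in Tcm. Tnv held 9.49 and 5.78 CPM in WT, 14 and 11.3 CPM in AAB, and 16.5 and 16.3 CPM in BBA, and BBA exceeded WT by 1.24 ± 0.28 (adjusted p = 0.0336, 6.95% of genes called higher). The WT library that stood apart was the lower of the pair. Without it the difference was 0.92 (adjusted p = 0.116), and the call held only when WT replicate 1 was the library left out. In Tcm with IL-15 WT held 3.99 and 6.998 CPM, AAB 10.4 and 11.0 CPM and BBA 12.4 and 12.2 CPM. Here BBA exceeded WT by 1.26 ± 0.26 (adjusted p = 0.00923), which held without each library, and AAB by 0.97 ± 0.26 (adjusted p = 0.0698). Over the 8 CD8 conditions the mean of Art2b was above WT in 8 of 8 for BBA, by 1.72-fold to 2.59-fold and without overlap in 7, and in 8 of 8 for AAB, by 1.17-fold to 2.34-fold and without overlap in 6. In Tem with IL-15, at 1.81 to 6.43 CPM, Art2b did not pass the filter on low counts and was not tested.

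In CD4 Tnv neither edgeR nor DESeq2 called a difference of Art2b from WT, and 0 of 4 tests had an unadjusted p under 0.05. With NC the libraries held 22.2 to 26.7 CPM in WT, 28.4 and 34.4 CPM in AAB and 18.9 and 23.97 CPM in BBA, and the difference of BBA from WT was -0.20 ± 0.15 (adjusted p = 0.744). With IL-7 the WT libraries held 9.50, 6.19 and 12.1 CPM and the BBA libraries 22.2, 6.96 and 18.4 CPM (0.83 ± 0.40, adjusted p = 0.22). Values in CD4 and CD8 cells come from separate tables and were not tested against each other.

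Art2b was called lower than with NC in WT CD8 Tnv with IL-15 and in WT CD4 Tnv with IL-7. In WT CD8 Tnv with IL-15 the change was -1.38 ± 0.28 on the log2 scale (adjusted p = 0.0272, 2.77% of genes called lower), from 17.3 and 23.4 to 9.49 and 5.78 CPM, a call made in 2 of 6 fits with a library left out (-1.76 to -1.08). With IL-7 the same cells held 17.7 and 21.8 CPM (-0.06 ± 0.26, adjusted p = 0.88). In CD4 Tnv with IL-7 the change was -1.46 ± 0.23 (adjusted p = 0.00133), called in every fit with a library left out. IL-15 went with a lower mean in 9 of 9 comparisons over genotypes and CD8 states, all without overlap and by 1.82-fold to 4.55-fold.

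Cd38, the NAD-consuming ectoenzyme, was higher in WT memory than in WT naive CD8 cells without cytokine. Without cytokine WT Tnv held 3.34 and 4.79 CPM, WT Tcm 14.7 and 15.2 CPM, and WT Tem 21.0 and 14.7 CPM. Both memory groups lay above the naive group and overlapped each other. The Tnv libraries lay below the filter of this fit (89.6 normalised counts in any library), so Cd38 was tested through the memory libraries. Tcm exceeded Tnv by 1.89 ± 0.25 (adjusted p = 0.0139, 2.30% of genes called higher) and Tem exceeded Tnv by 2.17 ± 0.25 (adjusted p = 0.0032, 6.64% called higher). The Tem call held without each library, and the Tcm call was lost without Tnv replicate 1 (1.65, adjusted p = 0.0988). The CD4 libraries held 0.552 to 2.61 CPM, and there Cd38 did not pass the filter.

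Between genotypes Cd38 was called once, in Tcm with IL-15, where WT held 6.90 and 7.93 CPM, AAB 8.24 and 15.7 CPM and BBA 14.6 and 13.9 CPM. BBA was higher by 1.03 ± 0.29 (adjusted p = 0.0281), a call lost without any WT or BBA library (adjusted p = 0.0733 to 0.121). The B cell and myeloid marker sums given above were higher in the same BBA libraries, and their part was not tested. In Tem with IL-15 the WT libraries held 11.2 and 12.2 CPM and the BBA libraries 32.5 and 18.7 CPM (1.18 ± 0.29, adjusted p = 0.114). In WT Tnv with IL-15 the library that stood apart held 13.8 CPM of Cd38 against 2.99 CPM in the other.

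Entpd1, which encodes the ATP- and ADP-hydrolysing CD39, was also higher in WT memory than in WT naive CD8 cells without cytokine. WT Tnv without cytokine held 3.10 and 3.01 CPM, WT Tcm 13.98 and 13.6 CPM and WT Tem 17.95 and 15.9 CPM. The naive and memory groups did not overlap. As for Cd38, the Tnv libraries lay below the filter (89.6 normalised counts), so Entpd1 was tested through the memory libraries. The rise over Tnv was 2.20 ± 0.17 in Tcm (adjusted p = 0.00223) and 2.52 ± 0.17 in Tem (adjusted p = 0.000545), and both calls held without each library. AAB and BBA held the same order of naive below memory cells, with 2.21 and 3.64 CPM in AAB Tnv against 15.6 and 17.7 CPM in AAB Tcm, and 2.48 and 1.998 CPM in BBA Tnv against 10.8 and 6.08 CPM in BBA Tcm.

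Entpd1 in WT Tnv was lower still with IL-7, at 0.176 and 0.393 CPM, which are 2 and 4 counts. The call (-3.41 ± 0.96, adjusted p = 0.0326, 10.4% of genes called lower) rests on those counts, and its size depends on the prior count of the fit. It was made in 1 of 6 fits with a library left out. That fit also held WT Tnv with IL-15, and a gene needed over 84.9 normalised counts in any library to be tested. Entpd1 passed only through IL-15 replicate 2, the library that stood apart, at 6.51 CPM. Summed B cell markers were at 16.2 and 9.33 CPM in these libraries against 59.5 and 144 CPM with NC, summed myeloid markers at 6.96 and 7.85 against 34.6 and 69.8 CPM, and their part was not tested. AAB and BBA Tnv with IL-7 held 0.548 and 0.923 CPM and 0.146 and 0.158 CPM. By edgeR no difference of Entpd1 from WT was called in 10 tests, with 5 at an unadjusted p under 0.05. DESeq2 called Entpd1 in AAB and BBA Tcm with IL-7, where it called 251 and 1286 of 10099 genes. The widest difference was in Tcm with IL-7, where genotype and sex are partly mixed. There WT held 20.1 and 10.3 CPM, AAB 2.99 and 3.76 CPM and BBA 5.77 and 4.39 CPM, without overlap. The differences from WT were -2.12 ± 0.47 (adjusted p = 0.292) and -1.51 ± 0.46 (adjusted p = 0.107). Without WT replicate 2 they were -2.56 and -1.95, with WT replicate 1, the library that stood apart, as the only WT library. WT replicate 2, at 10.3 CPM, lay above every AAB and BBA library. Summed myeloid markers were at 199 and 137 CPM in WT, 43.6 and 43.2 CPM in AAB and 130 and 239 CPM in BBA, and their part was not tested. In the CD4 libraries Entpd1 was at 0.121 to 3.27 CPM and was not tested.

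Nt5e, which encodes the AMP-hydrolysing CD73, was the member that rose most with IL-7. WT CD8 Tnv held 33.5 and 33.5 CPM with NC, 245 and 247 CPM with IL-7, and 80.2 and 89.0 CPM with IL-15. The 3 groups did not overlap. The rise was 2.86 ± 0.09 with IL-7 (adjusted p = 3.98e-05, 9.87% of genes called higher) and 1.39 ± 0.09 with IL-15 (adjusted p = 0.00157, 3.37% called higher), and both held without each library. In WT CD4 Tnv it rose with IL-7 from 16.8, 30.6 and 12.1 CPM to 100.3, 142 and 81.6 CPM (2.48 ± 0.32, adjusted p = 0.000478, 9.32% called higher), also without each library. Over all genotypes and CD8 states the mean was higher with IL-7 in 6 of 6 comparisons, by 2.32-fold to 7.34-fold and without overlap in 5, and with IL-15 in 9 of 9, by 1.41-fold to 2.53-fold and without overlap in 5.

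The mean of Nt5e in the deficient genotypes lay below that of WT, with large differences between their libraries. In CD8 cells edgeR made no call in 16 tests, with 2 at an unadjusted p under 0.05. DESeq2 called Nt5e in BBA Tnv with IL-7, where it called 607 of 10157 genes. In Tnv with IL-7, against 245 and 247 CPM in WT, AAB held 86.2 and 191 CPM and BBA 67.6 and 116 CPM. All 4 lay below WT, and the differences were -0.81 ± 0.38 (adjusted p = 0.576) and -1.4 ± 0.39 (adjusted p = 0.125). In Tnv with IL-15, BBA held 43.3 and 14.4 CPM against 80.2 and 89.0 CPM in WT (-1.43 ± 0.50, adjusted p = 0.135). Without BBA replicate 1, which left the lower BBA library alone, the difference was -2.46. In 5 of the 8 CD8 conditions BBA replicate 2 held less Nt5e than any other library of that condition. Over the 8 CD8 conditions the mean was below WT in 8 of 8 for AAB, by 1.28-fold to 1.93-fold and without overlap in 7, and in 8 of 8 for BBA, by 1.13-fold to 2.93-fold and without overlap in 3.

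In CD4 Tnv with IL-7 the BBA libraries held 45.2, 14.6 and 53.9 CPM of Nt5e and the AAB libraries 39.4 and 93.6 CPM, against 81.6 to 142 CPM in WT. BBA did not overlap WT and AAB did. The difference of BBA from WT was -1.51 ± 0.46 (adjusted p = 0.0686). Here 3 replicate numbers were shared and same-numbered libraries deviated together, and with replicate number as a block the difference was called (-1.68 ± 0.46, adjusted p = 0.0398, 2.62% of genes called lower without the block).

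By cell state, Nt5e in WT without cytokine was at 33.5 and 33.5 CPM in Tnv, 41.5 and 36.6 CPM in Tcm and 73.8 and 51.4 CPM in Tem. Tem exceeded Tnv by 0.95 ± 0.18 (adjusted p = 0.0195), a call lost without either Tnv library (adjusted p = 0.133 and 0.115) or without Tem replicate 1 (0.69, adjusted p = 0.0809). With IL-15, WT Tem at 182 and 117 CPM exceeded WT Tcm at 71.4 and 52.5 CPM by 1.30 ± 0.22 (adjusted p = 0.0478, 0.67% of genes called higher), in 2 of 6 fits with a library left out (adjusted p = 0.0694 to 0.224 in the others).

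Adora2a, the adenosine receptor, was higher in WT memory than in WT naive CD8 cells, with little spread between libraries. WT Tnv without cytokine held 23.9 and 22.5 CPM, WT Tcm 58.5 and 65.4 CPM, and WT Tem 83.4 and 76.1 CPM. The 3 groups did not overlap. The rise over Tnv was 1.44 ± 0.11 in Tcm (adjusted p = 0.00206) and 1.84 ± 0.11 in Tem (adjusted p = 0.000376), in every fit with a library left out, and the step from Tcm to Tem was 0.39 ± 0.10 (adjusted p = 0.148, 1.95% of genes called). AAB held 18.4 and 26.3 CPM in Tnv and 62.6 and 66.0 CPM in Tem, and BBA 19.8 and 21.1 CPM and 65.3 and 57.2 CPM. With IL-15 no state difference in Adora2a was called while WT Tnv replicate 2, at 29.99 CPM against 11.5 in replicate 1, was in the fit. Without it Tcm exceeded Tnv by 1.55 (adjusted p = 0.0143) and Tem exceeded Tnv by 2.09 (adjusted p = 0.00564). With all libraries in, 7.6% and 2.92% of genes were called.

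Between genotypes Adora2a differed in Tcm with IL-15. WT held 33.0 and 34.2 CPM, AAB 52.0 and 47.9 CPM and BBA 47.96 and 55.2 CPM. All deficient libraries were above WT, by 0.71 ± 0.12 in BBA (adjusted p = 0.00371) and 0.58 ± 0.12 in AAB (adjusted p = 0.0326, just under 1.5-fold and so not called). The BBA call was lost without BBA replicate 2, where the difference of 0.58 (adjusted p = 0.0186) was under 1.5-fold. Without cytokine the same cells held 58.5 and 65.4 CPM in WT, 60.05 and 63.3 in AAB and 58.3 and 63.3 in BBA, which overlapped (0.01 ± 0.10 for BBA over WT). The effect of BBA with IL-15 differed from its effect with NC in Tcm by 0.70 ± 0.15 (adjusted p = 0.0191, 2.52% of genes called higher), in 6 of 12 fits with a library left out (0.61 to 0.85, adjusted p = 0.0507 to 0.0684 in the others). The corresponding difference for P2rx7 was 1.55 ± 0.56 (adjusted p = 0.124). The Adora2a call was the only one in 17 such tests of the members over Tnv, Tcm and Tem (2.45% of genes called in Tnv and 0.00954% in Tem), and the effect of BBA with IL-15 against that with IL-7 (1.05% called in Tnv and 0.126% in Tcm) gave 0 calls in 11 tests by edgeR and 0 by DESeq2, with 4 at an unadjusted p under 0.05. Of all genes, 10.3% in Tnv and 8.06% in Tcm had such a p. In CD4 Tnv the libraries held 12.4 to 28.3 CPM of Adora2a, and the differences from WT were -0.52 to -0.17 on the log2 scale. None was called by edgeR or DESeq2, and 1 of 4 had an unadjusted p under 0.05.

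**Figure D3:**
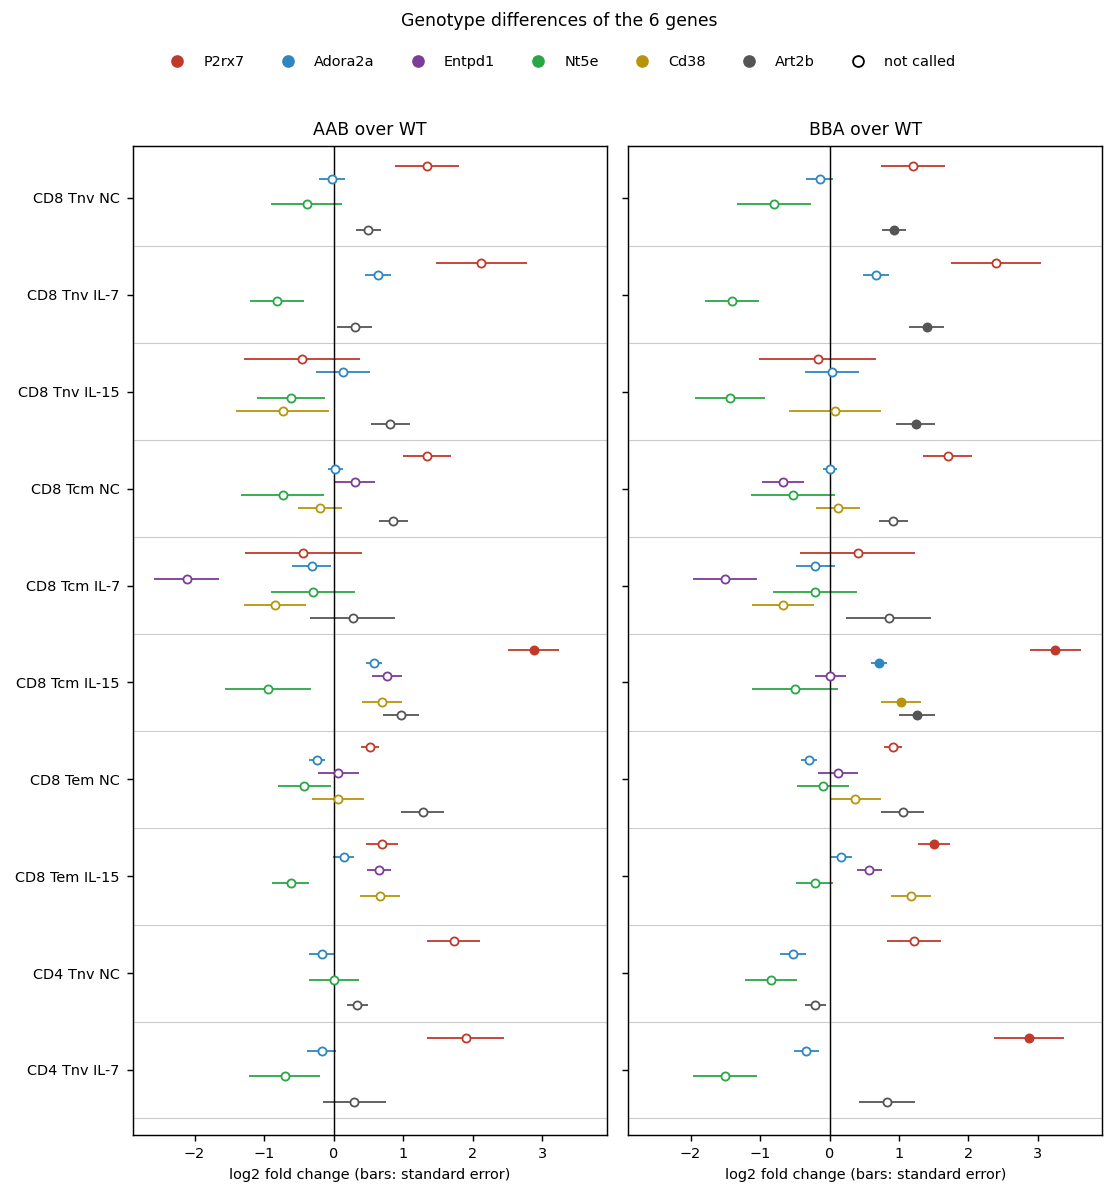
Log2 fold change of AAB over WT (left) and BBA over WT (right) for each member in 8 CD8 and 2 CD4 conditions, from edgeR's quasi-likelihood fits. Bars are standard errors, filled points were called and open points were not, and a member that did not pass the filter has no point. The filled points are P2rx7 in Tcm with IL-15 on the left, at 2.88, and 9 on the right, of which 4 are Art2b and 3 are P2rx7.

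**Figure D4:**
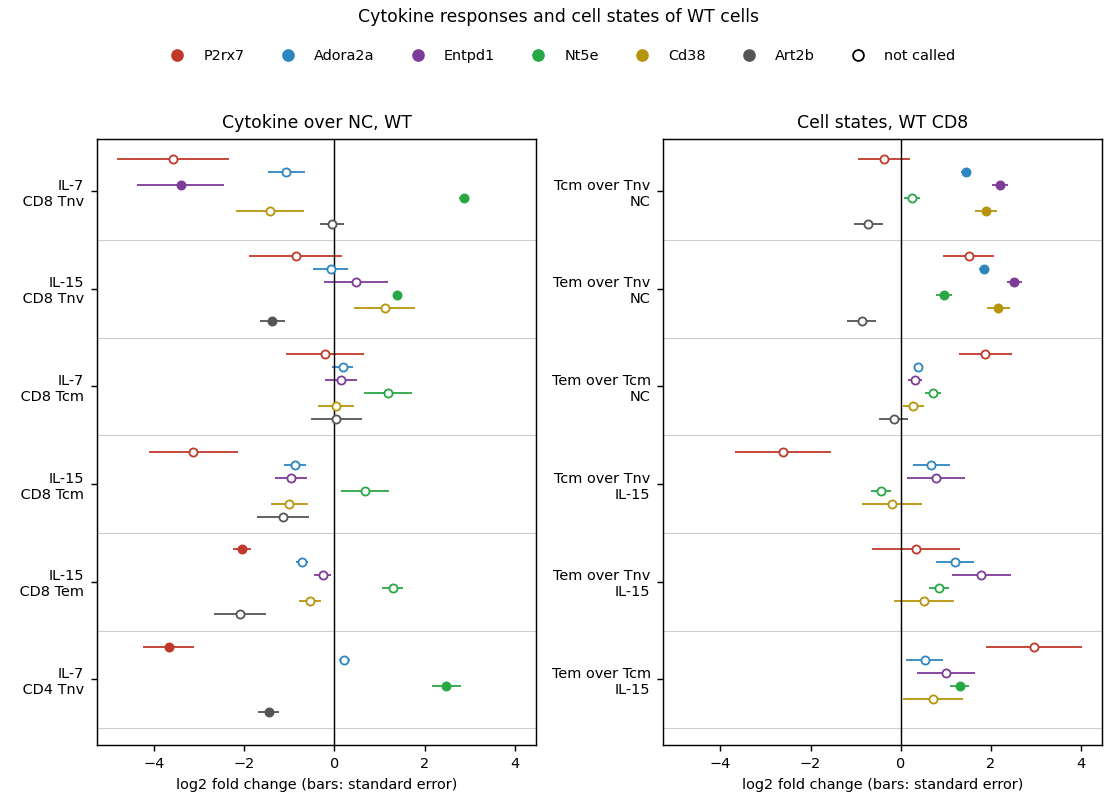
Log2 fold change of each member in WT libraries, with its standard error: cytokine over NC (left) and one CD8 state over another with NC or IL-15 (right). Filled points were called. Nt5e lies above 0 and P2rx7 below 0 with IL-7 and IL-15 in Tnv, and Adora2a, Entpd1 and Cd38 lie above 0 in both memory states over Tnv with NC.

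Members are compared with each other per kilobase of merged exons. In WT Tnv without cytokine the order of CPM per kilobase was Adora2a at 7.58, Art2b at 7.19, Nt5e at 3.89, P2rx7 at 2.52, Cd38 at 1.04 and Entpd1 at 0.55. In WT Tem it was Adora2a at 26.0, Nt5e at 7.28, P2rx7 at 6.996, Cd38 at 4.59, Art2b at 3.75 and Entpd1 at 3.03. With IL-7 WT Tnv held 28.6 CPM per kilobase of Nt5e and 0.22 of P2rx7. Of the 6 members, Nt5e thus had the highest level per length in WT CD8 Tnv with IL-7, and Adora2a in WT CD8 Tnv and Tem without cytokine.

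Over the 8 WT CD8 groups the ratio of the highest to the lowest group mean was 59.4 for Entpd1, 32.1 for P2rx7, 11.7 for Cd38, 8.57 for Art2b, 7.34 for Nt5e and 7.15 for Adora2a. For P2rx7 the order ran from Tem NC through Tnv NC, Tcm NC, Tcm IL-7, Tem IL-15, Tnv IL-15 and Tcm IL-15 to Tnv IL-7, and only Tem NC was separated from its neighbour by more than the spread of the libraries. Of the 7 neighbouring pairs in the order, 4 did not overlap for Adora2a and for Nt5e, 3 for Entpd1 and for Cd38, and 1 for P2rx7 and for Art2b. Adora2a, Entpd1 and Cd38 had Tem NC, Tcm IL-7 and Tcm NC at the top and Tnv IL-7 at the bottom, Nt5e had Tnv IL-7 at the top and Tnv NC at the bottom, and Art2b had Tnv NC at the top and Tem IL-15 at the bottom, apart from the rest.

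The pattern over the 24 CD8 group means was described by Pearson's r of log2(CPM + 1), with no test, since the groups share cell states and cytokines. Each member was set against 8762 genes with a mean of at least 10 CPM. The other members were included at any level, and Entpd1 entered below that mean. Entpd1 and Cd38 were alike (0.941), as were Adora2a and Cd38 (0.889) and Adora2a and Entpd1 (0.872), whereas P2rx7 and Nt5e ran against each other (-0.490), as did Entpd1 and Art2b (-0.546). The most like genes were Akap12 (0.911), Jak3 (0.903) and Slc45a4 (0.894) for P2rx7 and Cobll1 (0.961), Slamf7 (0.958) and Plek (0.957) for Adora2a. For Entpd1 they were Cd44 (0.953), Unc119 (0.947) and Clstn1 (0.942), and for Cd38 Entpd1 (0.941), Unc119b (0.937) and Cd44 (0.937). Cd44 is the surface marker on which naive and memory cells were sorted. For Nt5e they were Adam19 (0.879), Nipal3 (0.878) and Slc10a3 (0.854), and for Art2b Pik3ip1 (0.855), Casd1 (0.849) and Tmem9 (0.847).

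Among 54 further genes of nucleotide release, breakdown, transport and sensing, Tcm with IL-15 gave the most calls of the genotype comparisons. In BBA Tcm with IL-15, 25 of the 54 were tested, 7 were called higher and 4 lower, beside 23.6% of all genes called, and their median log2 difference was 0.04 against 0.00 over all genes. Alpl, a phosphatase that removes phosphate from nucleotides, was lower by -2.38 ± 0.15 (SE, adjusted p = 0.000137), and Slc29a1, a nucleoside transporter, by -1.22 ± 0.12 (adjusted p = 0.000599). Nmrk1, a kinase of NAD synthesis, was higher by 1.38 ± 0.14 (adjusted p = 0.000705) and Art4, a relative of Art2b, by 1.70 ± 0.19 (adjusted p = 0.000913). In AAB in the same condition 25 were tested, 3 called higher and 3 lower, beside 4.45% of all genes called, with Alpl at -1.99 (adjusted p = 0.00284). In the other BBA comparisons with calls, 0 were higher and 2 lower of 26 in Tnv with NC, 0 and 3 of 27 with IL-7, 3 and 1 of 25 with IL-15, 2 and 1 of 25 in Tcm with IL-7, 0 and 1 of 23 in Tem with IL-15, and 2 and 0 of 25 and 2 and 3 of 20 in CD4 Tnv with NC and IL-7. The shares of all genes called in these comparisons, in that order, were 2.75%, 2.69%, 9.56%, 3.09%, 1.69%, 1.13% and 5.5%.

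Slc17a9, which loads ATP into vesicles, moved with both genotype and cytokine. It was lower in BBA than in WT in CD8 Tnv with NC (-0.65, adjusted p = 0.0162) and in CD4 Tnv with IL-7 (-1.12, adjusted p = 6.62e-05), and in WT it rose with IL-7 in CD8 Tnv (0.95, adjusted p = 0.0025) and CD4 Tnv (1.35, adjusted p = 0.000297). P2ry10, a receptor of the P2Y family by sequence, rose with IL-7 in WT CD8 Tnv (1.35, adjusted p = 0.00023) and CD4 Tnv (1.31, adjusted p = 6.21e-05), and was lower in BBA with IL-7 in CD8 Tnv (-1.76, adjusted p = 0.0263) and CD4 Tnv (-1.13, adjusted p = 0.00182). In WT CD8 Tnv with IL-7, 26 of the list were tested, 5 called higher and 1 lower, beside 20.3% of all genes called, and in CD4 Tnv 24 were tested and 5 called higher, beside 16.8%. Art2a-ps, the relative of Art2b shown above, rose with IL-7 in WT CD8 Tnv (2.54, adjusted p = 0.00282) and CD4 Tnv (1.80, adjusted p = 0.0124), and was higher in BBA than in WT CD4 Tnv with NC (3.09, adjusted p = 0.00675). Across states, Casp1, a protease of the inflammasome, was higher in WT Tem than in Tnv with NC (3.02, adjusted p = 0.00104).

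The retrovirus comparison asked what active STAT5A did in cells labelled as AAB. The 4 libraries did not hold the markers of CD8+ T cells at the level of the sorted cells. Cd8a was at 1.401 to 3.15 CPM, Cd8b1 at 0.305 to 1.57 and Cd3e at 2.80 to 14.8 CPM, against at least 700, 522 and 335 CPM in every sorted CD8 library. Ncr1, the gene of the NK receptor NKp46, was at 1128 to 1447 CPM and Klrb1c, the gene of NK1.1, at 229 to 593 CPM, where sorted CD8 libraries reached at most 4.97 and 5.37 CPM. They are therefore named by their labels only. Stat5a had a mean of 60.4 CPM in the libraries labelled S5a and 5.79 CPM in those labelled Ctl, and Stat5b 140 and 67.4 CPM.

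In the libraries labelled S5a P2rx7 was at 2.56 and 2.68 CPM, and in those labelled Ctl at 14.9 and 92.8 CPM. The S5a libraries lay below both Ctl libraries, which themselves differed widely. They also lay below the filter of this fit (61.6 normalised counts in any library). P2rx7 was therefore tested through the Ctl libraries. The log2 difference was -4.37 ± 0.85 (adjusted p = 0.0314, 4.41% of genes called lower). It was -2.53 without Ctl replicate 2 and -5.16 without Ctl replicate 1, both called, and -4.32 (adjusted p = 0.13) and -4.40 (adjusted p = 0.0788) without S5a replicate 1 or 2, not called. Entpd1 went the other way, with 211 and 133 CPM in S5a against 27.6 and 42.9 CPM in Ctl, a rise of 2.28 ± 0.28 (adjusted p = 0.00806, 2.21% called higher) that held without each library (1.91 to 2.63).

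The other members did not pass the test. Cd38 was at 39.7 and 39.5 CPM in S5a and 55.6 and 80.3 CPM in Ctl (-0.79 ± 0.19, adjusted p = 0.0591), and Adora2a at 284 and 250.3 against 175 and 207 CPM (0.47 ± 0.13, adjusted p = 0.0934), both without overlap. Art2b was at 1.10 and 0.369 CPM against 1.38 and 5.41 CPM, and Nt5e at 29.1 and 13.4 against 18.1 and 10.1 CPM, which overlapped. Marker sums also differed between the groups without overlap. CD8 T cell markers (4 genes) were at 10.6 and 29.0 CPM in S5a and 61.4 and 113 CPM in Ctl, B cell markers at 9.87 and 27.8 against 153 and 93.3 CPM, and myeloid markers at 1613 and 1434 against 848 and 701 CPM. Of the myeloid genes Itgam was at 288 to 1270 CPM and Fcer1g at 215 to 299 CPM over the retrovirus libraries. Lyz2, Csf1r, Cybb, Cd68 and Cd14 reached at most 198 CPM, so the myeloid sum mainly followed Itgam. That sum does not give the direction of the other myeloid genes. The part of these markers in the P2rx7 and Entpd1 differences was not tested. Of the 54 further genes 27 were tested and 3 were called lower in S5a, beside 4.41% of all genes. These were Dpp4 (-2.16, adjusted p = 0.0149), Naprt (-1.30, adjusted p = 0.0194), an enzyme of NAD synthesis, and P2rx4 (-1.93, adjusted p = 0.0439), the neighbouring ATP-gated channel.

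**Figure D5:**
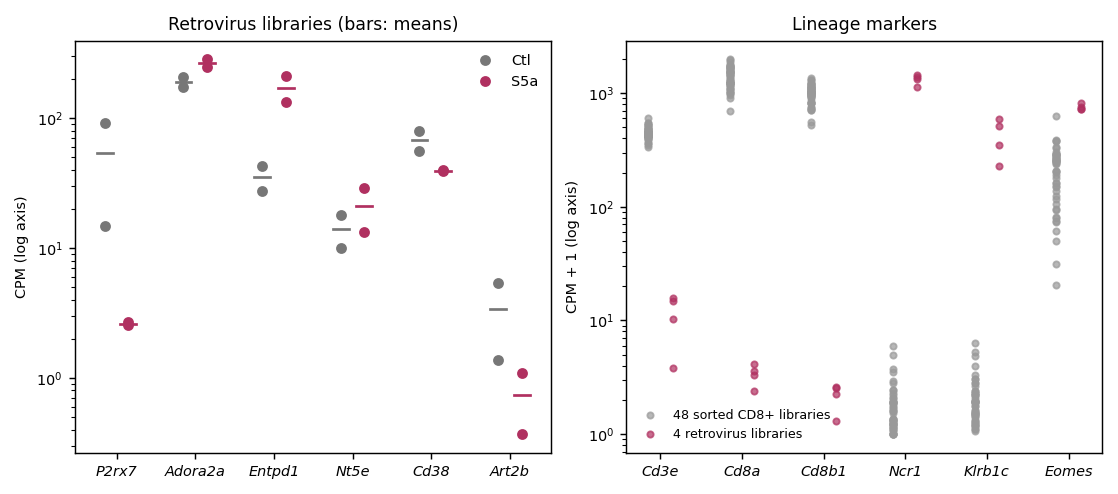
Left, CPM (log axis) of the members in the libraries labelled Ctl and S5a, with points for libraries and bars for means. Right, CPM + 1 (log axis) of lineage markers in the 48 sorted CD8+ libraries and the 4 retrovirus libraries, where Cd3e, Cd8a and Cd8b1 lie lower and Ncr1 and Klrb1c higher than in every sorted library.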

How the data were processed

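Poly(A) RNA had been sequenced as single-end reads of 50 bases. The authors aligned them with TopHat2 2.1.1 and used htseq-count 2.0.3 for counting, and the deposited files hold raw counts per gene symbol in separate tables for CD4, CD8 and retrovirus libraries. The study's methods name the mm10 build and the labels' processing notes mm9, and the annotation and strand setting are not given in the sources used here. Rows of the counter's summary took 67.0% to 68.4% of each retrovirus column and were left out. All 69 libraries were read, and 2 CD4 libraries whose labels contradict each other on cytokine entered no comparison. Libraries without cytokine were cultured by the labels, but lysed right after sorting by the study's methods.

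Counts were scaled by TMM and fitted per comparison family (genotypes within a cell state and cytokine, cytokines within WT cells of a state, states within WT, S5a against Ctl, and the interaction of genotype and cytokine) in edgeR 4.0.16 under R 4.3.3, after a Jaccard filter on low counts (thresholds of 40.2 to 138 normalised counts). A gene passed the filter where any library of the fit exceeded the threshold, so a gene low in 1 group could be tested through another. P-values were adjusted over all genes of a fit, and a call needed a change over 1.5-fold with an adjusted p under 0.05. The fits were tested on simulated data. Pairing by replicate number was checked as the correlation of same-numbered samples' deviations from their group means, over genes. Numbers were taken to pair the samples where 2 groups shared at least 3 of them and every pair was over 0.1. This held for WT and BBA in CD4 Tnv with IL-7 (0.140, 0.211 and 0.102, and 0.102 to 0.446 over 7 pairs of that fit) and not for the other groups sharing 3 numbers, WT CD4 Tnv with NC and IL-7. CD8 groups hold 2 libraries, whose deviations mirror each other and give 1 value per pair of groups, so pairing was not decided there. The numbers come from the sample titles. Alternatives were other filters, scalings, tools and corrections, 1 fit over all groups, a replicate block and each library left out. DESeq2 1.42.0 was 1 of the tools.

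The members and the gene lists were chosen with earlier results of these data known. The members are named in every comparison, and of the 54 further genes at most 4 called genes per comparison, those with the lowest adjusted p. Gene positions and exon lengths come from GENCODE vM21 on GRCm38, and sequences from RefSeq on GRCm38.p6. Intervals of single values would cover counting error only and were not computed. P-values measure the spread between 2 or 3 libraries per group.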

Additional observations from a re-analysis of the deposited data

Results flagged for a closer look

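The effect of BBA against WT on Adora2a in CD8 Tcm differed between IL-15 and no cytokine, by 0.70 ± 0.15 on the log2 scale (edgeR's quasi-likelihood interaction term, adjusted p = 0.0191 with Benjamini-Hochberg adjustment). With IL-15 the WT libraries held 33.0 and 34.2 CPM and the BBA libraries 47.96 and 55.2 CPM, and without cytokine they held 58.5 and 65.4 CPM and 58.3 and 63.3 CPM. Of all genes in that comparison 7.73% were called. The Adora2a call was made in 6 of 12 fits with a library left out and in 4 of 8 other settings.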

How the results depend on the processing

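Counts of member calls moved with the setting, while the direction of the single calls mostly did not. AAB against WT in CD8 gave 1 call, and 0 under Bonferroni, 10 with no filter, 2 with DESeq2's size factors, 6 in DESeq2, 4 with a replicate block and 2 in 1 fit. BBA against WT in CD8 gave 8, and 0 under Bonferroni, 18 with no filter, 15 in DESeq2, 15 with a replicate block and 5 in 1 fit. AAB against BBA in CD8 gave 0, and 1 with filterByExpr, 5 with no filter, 2 in DESeq2 and 1 with a replicate block. In CD4, AAB against WT gave 0, and 2 with no filter, 1 in DESeq2 and 1 with the block, and BBA against WT gave 1, and 0 under Bonferroni, 5 with no filter, 3 with the block and 2 in 1 fit. In WT CD8, IL-7 gave 2, and 1 under Bonferroni, 6 with no filter, 1 with edgeR's newer fit and 4 in 1 fit, and IL-15 gave 3, and 1 under Bonferroni, 13 with no filter, 7 in DESeq2 and 6 with a replicate block. IL-7 in WT CD4 gave 3, and 0 under Bonferroni. States with NC gave 7, and 3 under Bonferroni, 12 with no filter and 12 with the block, and with IL-15 1, and 0 under Bonferroni, 0 with filterByExpr, 8 with no filter, 5 in DESeq2 and 5 in 1 fit. The BBA effect with IL-15 against NC gave 1, and 0 under Bonferroni, 0 with filterByExpr, 0 with no filter, 2 in DESeq2 and 0 in 1 fit, and against IL-7 0, and 1 with no filter. The retrovirus libraries gave 2, and 0 under Bonferroni and 5 with no filter. The cause of these shifts was not tested, except that without the filter members at low counts are tested too. Over all genes, too, DESeq2 called more than edgeR in every genotype comparison. In Tcm with IL-7 it called 251 genes against 6 for AAB, and 1286 against 312 for BBA. Shares of all genes called under the other settings are not given, so those member counts have no background beside them.

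Leaving out 1 library at a time gave 1 to 5 calls for AAB against WT and 3 to 9 for BBA against WT in CD8, 0 to 1 for AAB against BBA, 0 to 1 and 1 to 2 for AAB and BBA against WT in CD4, 1 to 5 for IL-7 and 1 to 7 for IL-15 in WT CD8, 3 for IL-7 in CD4, 5 to 7 and 0 to 4 for states with NC and IL-15, 0 to 2 and 0 to 4 for the interactions with NC and IL-7, and 1 to 3 for the retrovirus. Of single calls under these fits 125 held and 48 were lost, and 0 turned direction. Chosen after seeing the data, leaving out WT Tnv IL-15 replicate 2 gave 7 calls for BBA against WT, 3 for IL-7, 4 for IL-15 and 4 for states with IL-15, and leaving out WT Tcm IL-7 replicate 1 gave 9, 3 and 7. With sex as a term in Tcm with IL-7, Art2b in AAB turned from 0.27 to -0.25 and Nt5e in BBA from -0.20 to 0.19, neither called.

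Outside the CD4 IL-7 genotype comparison the replicate numbers were not taken as pairs. Same-numbered libraries correlated at -0.056 to 0.794 between genotypes in CD8 (0.140 to 0.335 in Tnv with IL-7, where Nt5e in BBA was called with the block at -1.48, edgeR adjusted p = 0.0189), -0.057 to 0.573 in CD4 responses to IL-7 and -0.070 to 0.697 between states. The replicate block, run as an alternative, left 27 of the single calls as they were. No block was run for the retrovirus libraries, 1 of which has no replicate number. Entpd1 and Cd38 were filtered out in CD4 Tnv and Entpd1 in the genotype comparisons of CD8 Tnv, so the reported fits did not test them there.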

Other observations

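The 2 CD4 Tnv libraries whose labels contradict each other on cytokine belong to no comparison. The AAB library of the 2 held 13485027 counts, with 92.9 CPM of P2rx7, 23.7 of Adora2a, 0.916 of Entpd1, 18.6 of Nt5e, 1.60 of Cd38 and 21.2 of Art2b. The BBA library held 10713517 counts, with 111 CPM of P2rx7, 17.0 of Adora2a, 1.49 of Entpd1, 15.2 of Nt5e, 2.14 of Cd38 and 19.6 of Art2b.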
